A study of Homo sapiens with 24 samples.

Results

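The GAGE genes are cancer testis genes that lie as a tandem cluster of near-identical copies on the X chromosome. They are active in germ cells of the testis, silent in most other tissues, and switched on in a share of tumours, where peptides of GAGE proteins can be recognised by cytotoxic T cells. In somatic cells their silence goes with methylated CpG sites at the promoter, and loss of that methylation is a known route to their expression. The functions of the individual GAGE proteins are not well established, so the copies are described here by name and not by separate roles.

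The family described here had 8 symbols, GAGE4, GAGE12C, GAGE12G, GAGE12H, GAGE12J, GAGE12B, GAGE12F and GAGE2A. Every probe annotated to one of these 8 symbols was taken, which gave 9 of the 47231 probes on the array, because GAGE4 had 2. These were 8 of 20046 gene symbols with a probe of their own. The symbols were selected on their measured differences from control in the arrays labelled T24 after 5-Aza-CdR or the combination, so those contrasts are given below as a description with no test. Another 4 symbols with 1 probe each, GAGE7, GAGE12D, GAGE12E and GAGE10, made up the rest of the 13 GAGE probes. In RefSeq, GAGE4 is an older name of GAGE1 and GAGE7 is an older name of GAGE12F. A probe for one copy may also detect RNA of the others, so the 9 probes are not 9 independent measurements.

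The study asked whether inhibiting DNA methyltransferases and the histone demethylase LSD1 together keeps silenced genes active. 5-Aza-CdR (decitabine) is a cytidine analogue that is built into DNA and traps DNA methyltransferases, and clorgyline, a monoamine oxidase A inhibitor, was used to inhibit LSD1, the product of KDM1A. Transcript levels were read from Illumina bead arrays (HumanHT-12 V4) in T24 (bladder carcinoma), HL60 (promyelocytic leukaemia) and HCT116 (colon carcinoma) cells, established lines without a transgene in the labels. Each line had 8 arrays, 2 each for control, clorgyline, 5-Aza-CdR and the combination, 24 in all. 5-Aza-CdR was given for 24 h at 1 µM in T24, 0.1 µM in HL60 and 0.3 µM in HCT116, and clorgyline was then given daily at 10 µM. Arrays were taken at day 18 in T24 and HL60 and at day 20 in HCT116. Because doses differed, changes are compared between treatments within a line, and the lines are set side by side. Changes are tested between lines, HL60 against HCT116, only in a closing section.

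Values are log2 intensities normalized within each line, and no detection p-value was at hand. The median over all probes and arrays was 8.10 in T24, 7.53 in HL60 and 7.69 in HCT116, and the highest value was 14.77, 16 and 14.44. A control GAGE value close to that median gives no measure of RNA above background, so differences from it can be compressed. Within each line the arrays held almost the same distribution of values, and replicate arrays correlated across probes at r of 0.966 to 0.997. No pair of the 24 arrays held identical values. The labels do not say whether replicates came from separate cultures, so p-values measure only the spread between these arrays.

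The labels were checked against markers before the GAGE values were read. The HL60 arrays had the myeloid enzyme gene MPO at 15.80 in controls. The arrays labelled T24 had the epithelial adhesion gene EPCAM at 12.64 in controls, with the keratin gene KRT7 at 8.12 and the N-cadherin gene CDH2 at 8.04, close to the median of all probes. In the control arrays labelled HCT116, EPCAM was at 7.86, KRT7 at 11.70 and CDH2 at 11.16. In the treated arrays labelled HCT116, EPCAM was at 12.07 to 12.48, KRT7 at 7.64 to 8.19 and CDH2 at 7.58 to 7.98. Across all probes the treated HCT116-labelled arrays correlated with the T24-labelled controls at a median r of 0.982 to 0.990, and with the HCT116-labelled controls at 0.904 to 0.911. The control arrays labelled HCT116 therefore did not match the treated arrays of the same label. EPCAM, KRT7 and CDH2 were picked after their values were seen, and the whole lists said less. Of 10 colon markers, 1 was over 1 log2 unit above the median of all probes in the T24-labelled controls and in each treated group labelled HCT116, and 0 were in the HCT116-labelled controls. Of 13 urothelial and mesenchymal markers, 5 were in the T24-labelled controls, 7 in the HCT116-labelled controls and 4 to 5 in the treated groups labelled HCT116. The colon genes CDX1, VIL1, KRT20 and GPA33 lay within 0.183 of the median in the controls of both labels. The uroplakin genes UPK1B, UPK2 and UPK3A, and GATA3, did so as well. The colon list also held genes that differed. CDX2 was at 8.60 in T24-labelled controls, 7.62 in HCT116-labelled controls and 8.12 to 8.40 in the treated groups labelled HCT116. CDH1 was at 8.54, 7.61 and 7.91 to 8.56 in the same groups. Taken whole, the lists do not settle which line these arrays held. The arrays are called by their labels throughout, and none was reassigned. Treated HCT116-labelled arrays are tested only against each other, also where the resulting difference is set against that of HL60.

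The promoter windows of the family are shown because most of its copies share them letter for letter. RefSeq (GRCh38.p14) held 13 windows for 12 GAGE genes, each of 300 bases from 250 before to 50 after an annotated start, all on the forward strand of chromosome X. The windows of GAGE12C, GAGE12D, GAGE12E, GAGE12F, GAGE12H, GAGE12J, GAGE2A and GAGE1, the current name of GAGE4, were 1 identical sequence. The GAGE12B and GAGE12G windows differed from it by small shifts of the start, with 1 mismatch over the shared bases in GAGE12B and 0 in GAGE12G. The window of GAGE10 differed more, with 268 identical bases, 30 mismatches and 2 gap positions. CG dinucleotides, the sites that DNA methyltransferases act on, are in capitals below, with GAGE12C at chrX:49531927-49532226 and GAGE10 at chrX:49303396-49303695, both on the + strand.
GAGE12C: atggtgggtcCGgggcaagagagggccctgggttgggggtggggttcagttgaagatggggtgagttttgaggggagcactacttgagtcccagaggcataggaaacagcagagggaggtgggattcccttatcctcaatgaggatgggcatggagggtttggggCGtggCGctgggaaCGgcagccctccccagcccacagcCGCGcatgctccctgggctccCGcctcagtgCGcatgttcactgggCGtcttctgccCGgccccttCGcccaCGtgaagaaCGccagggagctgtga
GAGE10: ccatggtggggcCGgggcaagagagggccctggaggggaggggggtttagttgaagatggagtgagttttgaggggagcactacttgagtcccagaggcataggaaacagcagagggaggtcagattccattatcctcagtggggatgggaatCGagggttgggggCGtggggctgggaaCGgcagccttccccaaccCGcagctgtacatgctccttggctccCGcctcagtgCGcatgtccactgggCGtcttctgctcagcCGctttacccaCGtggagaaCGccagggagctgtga
The GAGE12C window held 13 CG sites and was 63.7% G and C, and the GAGE10 window held 11 CG sites and was 61.3% G and C. Of 35116 promoter windows of this length, 51.7% held at least 13 CG sites, so the density was close to the median of 14. Each GAGE window also held the letters CACGTG, the same on both strands, which 7.26% of all windows held.

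In T24, the 9 GAGE probes were near the array median in control and clorgyline arrays and high in 5-Aza-CdR and combination arrays. All 18 control values lay between 8.0 and 8.16 and all 18 clorgyline values between 8.0 and 8.18, against 10.43 to 12.59 after 5-Aza-CdR and 11.52 to 13.45 after the combination. In that line 0.0635% of all probes were called higher after 5-Aza-CdR and 0.229% after the combination, where a call means an unadjusted p under 0.01 and a fold over 2. These contrasts chose the members, so nothing is read from the members' own place in them. In RNA of whole cultures, more cells with GAGE RNA and more GAGE RNA per cell cannot be told apart.

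GAGE12C had the largest difference in the combination arrays of T24. Its values were 8.07 and 8.08 in controls, 8.04 and 8.03 after clorgyline, 12.38 and 12.10 after 5-Aza-CdR, and 13.36 and 13.45 after the combination. Both combination values were above both 5-Aza-CdR values, and the log2 differences from control were 4.16 (SE 0.08) for 5-Aza-CdR and 5.33 (SE 0.08) for the combination, a 40.2-fold difference. GAGE12G had 8.14 and 8.10 in controls, 12.24 and 12.38 after 5-Aza-CdR, and 13.17 and 13.25 after the combination. The 2 groups of treated arrays again stood apart, and the log2 difference was 4.20 (SE 0.05) for 5-Aza-CdR and 5.09 (SE 0.05) for the combination.

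Both GAGE4 probes followed the same course. The first (ILMN_1715638) had 8.16 and 8.11 in controls, 12.29 and 12.38 after 5-Aza-CdR, and 13.23 and 12.97 after the combination. The second (ILMN_2195385) had 8.01 and 8.04 in controls, 12.59 and 12.27 after 5-Aza-CdR, and 13.28 and 12.78 after the combination. The log2 difference for the combination was 4.97 (SE 0.09) and 5.0 (SE 0.17), so the 2 probes of this gene differed by less than their error.

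The other 5 probes had smaller combination differences from their own controls, of 3.53 to 4.77. GAGE12H had 11.77 and 12.02 after 5-Aza-CdR and 13.01 and 12.81 after the combination. GAGE12J had 11.55 and 11.81, then 12.91 and 12.35. For each of the 9 members both combination values were above both 5-Aza-CdR values, where 20% of all probes had this order, and nothing is read from it because these arrays chose the members. The 2 GAGE12J combination arrays differed by 0.565, the largest replicate difference among the 9 probes there. GAGE12B had 11.18 and 11.41 after 5-Aza-CdR and 12.28 and 12.31 after the combination. GAGE12F had 11.25 and 11.78, then 12.29 and 11.88. GAGE2A had 10.43 and 10.71, then 11.52 and 11.56, and its log2 difference of 3.53 (SE 0.08) in the combination, an 11.6-fold difference, was the smallest of the 9. Just outside the group, GAGE12E had a combination difference of 1.83.

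**Figure D1:**
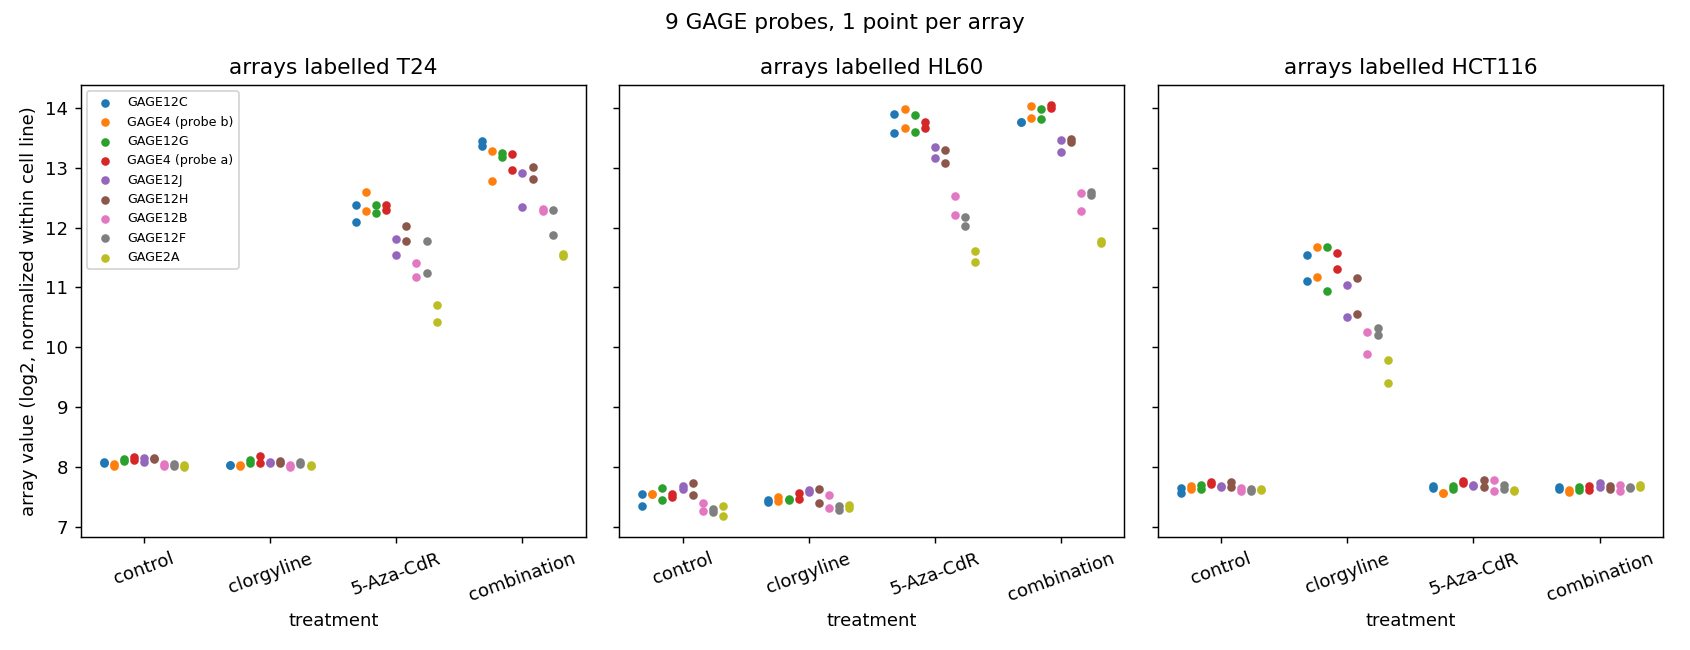
Log2 value of each of 9 GAGE probes (colours) on every array, by treatment, in arrays labelled T24, HL60 and HCT116, with 1 point per array and 2 arrays per treatment. Probes are high after 5-Aza-CdR and the combination in T24 (10.43 to 13.45) and HL60 (11.42 to 14.04), and in the arrays labelled HCT116 only after clorgyline (9.41 to 11.68).

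After clorgyline alone the GAGE probes of T24 lay close to their controls. The log2 differences ran from -0.05 to 0.04 and 0 of 9 probes were called (limma), with 0 at an unadjusted p under 0.05 and an adjusted p of 0.921 to 0.996, and in this contrast 0% of all probes were called higher and 0.0487% lower. The widest 95% interval reached from -0.48 to 0.51. These arrays share their controls with the contrasts that chose the members.

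In HL60, whose arrays were not used in choosing the members, 5-Aza-CdR raised all 9 GAGE probes at the dose used for that line. Control values lay between 7.17 and 7.73 and 5-Aza-CdR values between 11.42 and 13.99, so the groups did not overlap for any member, where 21.7% of all probes had both 5-Aza-CdR values above both controls. By limma, 9 of 9 probes were called higher, against 0.423% of all probes, with an adjusted p of 7.07e-13 to 1.43e-10. The median of the 9 differences was 5.60 (48.4-fold), beside a median near 0 over all probes.

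GAGE12C, GAGE4 and GAGE12G had the largest differences after 5-Aza-CdR. For GAGE12C the HL60 values were 7.55 and 7.35 in controls, 7.42 and 7.45 after clorgyline, 13.58 and 13.90 after 5-Aza-CdR, and 13.76 and 13.77 after the combination. Control and clorgyline arrays overlapped, as did 5-Aza-CdR and combination arrays, and the 5-Aza-CdR difference was 6.28 (SE 0.11, 77.9-fold, limma adjusted p = 3.44e-12). GAGE4 followed with 7.50 and 7.54 in controls, 13.66 and 13.76 after 5-Aza-CdR and 13.99 and 14.04 after the combination by its first probe, and with 7.55 and 7.54, 13.66 and 13.99, and 13.84 and 14.04 by its second. GAGE12G had 7.64 and 7.44 in controls, 13.59 and 13.88 after 5-Aza-CdR, and 13.81 and 13.99 after the combination. The 5-Aza-CdR differences of GAGE12C, GAGE4 and GAGE12G, from 6.19 to 6.28, did not differ beyond their standard errors of 0.09 to 0.11.

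The next step down was taken by GAGE12J and GAGE12H. GAGE12J had 7.68 and 7.63 in controls, 13.16 and 13.36 after 5-Aza-CdR, and 13.26 and 13.47 after the combination. GAGE12H had 7.73 and 7.53 in controls, 13.09 and 13.29 after 5-Aza-CdR, and 13.48 and 13.42 after the combination. Their 5-Aza-CdR differences of 5.60 (SE 0.10) and 5.56 (SE 0.11) overlapped within error.

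GAGE12B, GAGE12F and GAGE2A had the smallest differences of the members, as in T24. GAGE12B had 7.40 and 7.27 in controls, 12.22 and 12.53 after 5-Aza-CdR, and 12.58 and 12.28 after the combination. GAGE12F had 7.30 and 7.25 in controls, 12.03 and 12.17 after 5-Aza-CdR, and 12.59 and 12.55 after the combination. GAGE2A had 7.17 and 7.35, then 11.42 and 11.61, then 11.75 and 11.78. The 5-Aza-CdR differences were 5.04 (SE 0.13), 4.83 (SE 0.09) and 4.25 (SE 0.10, 19.1-fold).

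The combination raised the same 9 probes in HL60 by 4.50 to 6.50 (22.7-fold to 90.4-fold), with 9 of 9 called against 0.741% of all probes and an adjusted p of 5.88e-13 to 1.12e-10 (limma). Clorgyline alone gave differences of -0.12 to 0.09, with 0 of 9 called against 0.091% of all probes called higher, and 0 at an unadjusted p under 0.05. The lowest adjusted p for clorgyline was 0.818.

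The 4 GAGE probes outside the chosen symbols split in HL60. By current names the GAGE7 probe belongs to the member GAGE12F, and it differed less from control than the GAGE12F probe in T24 and HL60. After 5-Aza-CdR, GAGE7 rose by 3.14 (SE 0.08, limma adjusted p = 1.92e-10), GAGE12E by 2.97 (SE 0.17, limma adjusted p = 4.21e-07) and GAGE12D by 1.39 (SE 0.09, limma adjusted p = 9.70e-07). GAGE10 had 7.44 and 7.49 in controls and 7.51 and 7.55 after 5-Aza-CdR, a difference of 0.06 with a 95% interval of -0.12 to 0.24 (limma adjusted p = 0.835). GAGE10 is also the copy whose promoter window differs most from that of GAGE12C. GAGE12D and GAGE12E, which share the GAGE12C window letter for letter, had smaller differences than any member. Whether the promoter windows bear on the differences of these probes was not tested. In T24 the combination differences of the 4 probes were 1.42 for GAGE7, 1.83 for GAGE12E, 1.02 for GAGE12D and 0.10 for GAGE10. The GAGE12F probe was at 4.06 in the same contrast.

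**Figure D2:**
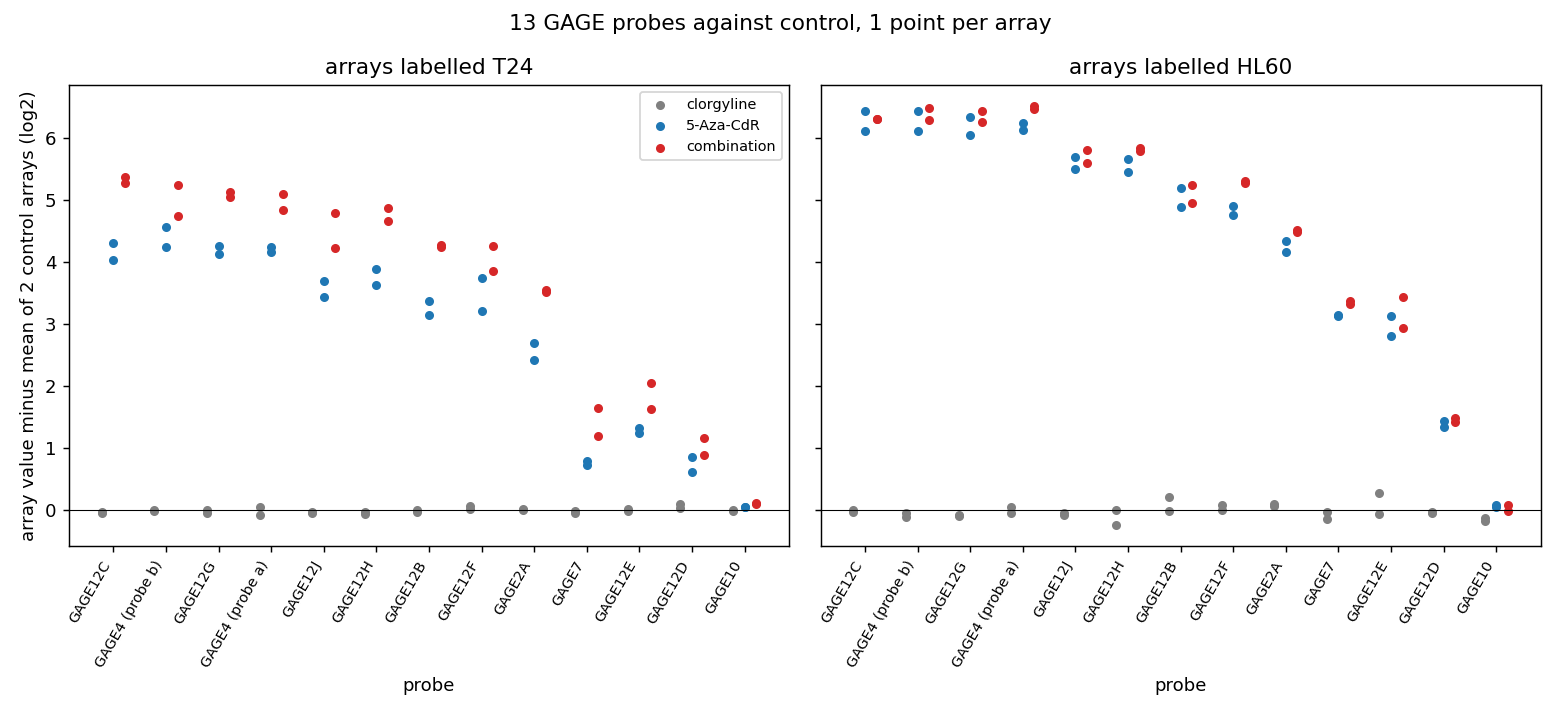
Log2 value of each array minus the mean of the 2 control arrays of its line, for 13 GAGE probes ordered by their HL60 difference after 5-Aza-CdR, in arrays labelled T24 and HL60, with 1 point per array. Clorgyline points lie around 0, the 9 members lie between 2.56 and 6.50 by their condition means, and GAGE10 lies at 0.02 to 0.10, both after 5-Aza-CdR or the combination.

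The order of the 13 probes by difference was much the same in both lines. The log2 difference for the combination in T24 and for 5-Aza-CdR in HL60 correlated across 13 probes at Pearson r = 0.98 and Spearman rho = 0.98, and across the 9 members at 0.98 and 0.97. These are descriptions over probes that share a platform and near-identical targets, and probes are not independent replicates. Across the 8 arrays of a line the 36 pairs of member probes correlated at a lowest r of 0.986 in T24, 0.998 in HL60 and 0.995 in HCT116.

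**Figure D3:**
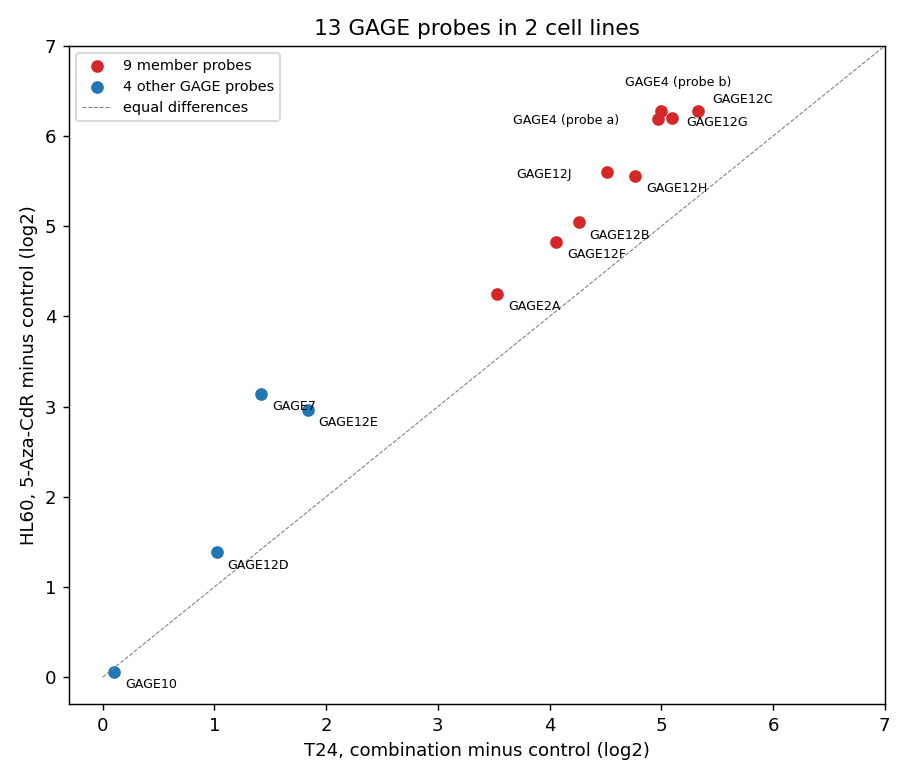
Log2 difference from control of 13 GAGE probes, for the combination in T24 (horizontal) against 5-Aza-CdR in HL60 (vertical), with 1 point per probe and a dashed line of equal differences. The 9 members (red) run from GAGE2A (3.53 and 4.25) to GAGE12C (5.33 and 6.28), and of the 4 other probes (blue) GAGE10 lies near 0 on both axes.

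Combination and 5-Aza-CdR arrays were set against each other within T24 and within HL60. In T24 the combination was above 5-Aza-CdR by 0.58 (GAGE12F) to 1.17 (GAGE12C) with a median of 0.95. These arrays chose the members, so the difference is described without a test and nothing is read from it. For that line the excess over the sum of the single-agent log2 changes was 0.54 to 1.21, with 95% intervals between -0.13 and 1.61 across the probes. In HL60 the difference between combination and 5-Aza-CdR was 0.03 (GAGE12C, 95% interval -0.21 to 0.27) to 0.47 (GAGE12F, 95% interval 0.28 to 0.65), positive for 9 of 9 probes. The probes are not independent, and the share of all probes with a positive difference is not given here, so nothing is read from that count. By limma 0 of 9 HL60 probes were called, against 0.0508% of all probes called higher, with 4 at an unadjusted p under 0.05. Only GAGE12F passed an adjusted p under 0.05 (adjusted p = 0.0186), where 1.29% of all probes did so upward. The HL60 excess over the summed log2 changes was -0.03 to 0.43, with 0 of 9 called against 0.0466% of all probes, 3 at an unadjusted p under 0.05 and a lowest adjusted p of 0.335. The T24 and HL60 differences were not tested against each other, because the T24 arrays had chosen the members and the doses differed.

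**Figure D4:**
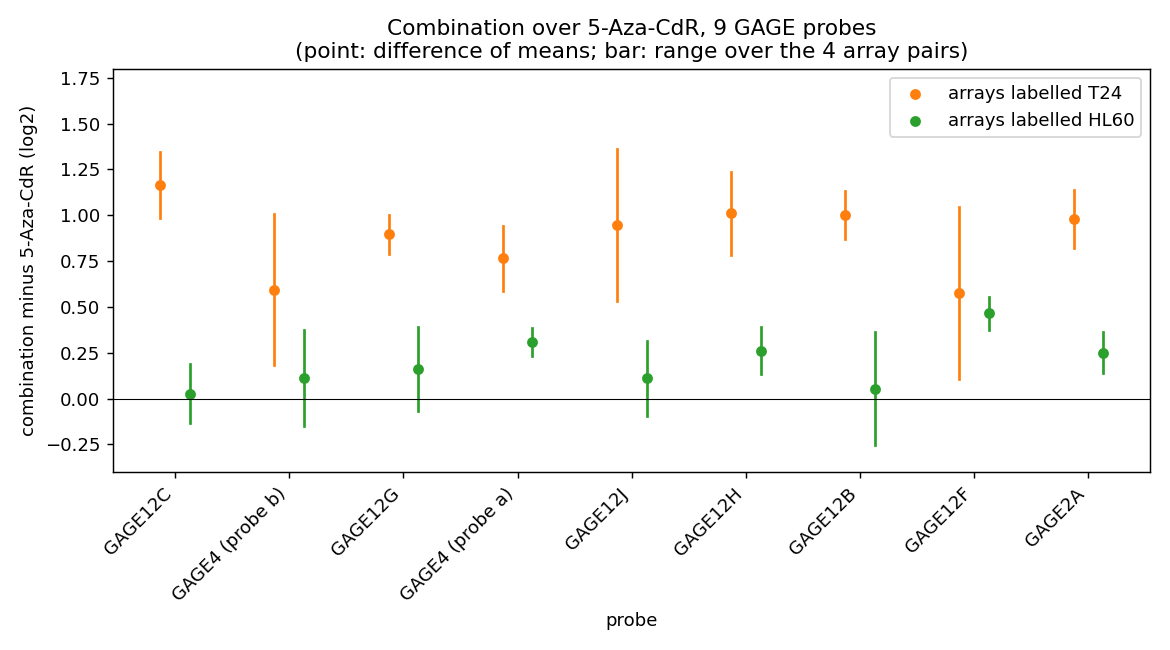
Combination minus 5-Aza-CdR (log2) for 9 GAGE probes in arrays labelled T24 (orange) and HL60 (green), where points are differences of the means of 2 arrays and bars span the 4 array pairs. T24 points lie between 0.58 and 1.17 and HL60 points between 0.03 and 0.47.

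In the arrays labelled HCT116 the GAGE probes were high in clorgyline arrays only. GAGE12C had 7.65 and 7.57 in controls, 11.55 and 11.11 in clorgyline arrays, 7.65 and 7.68 in 5-Aza-CdR arrays, and 7.67 and 7.62 in combination arrays. Over the 9 probes the clorgyline arrays lay between 9.41 and 11.68, and control, 5-Aza-CdR and combination arrays all lay between 7.56 and 7.79. Between treated arrays, 5-Aza-CdR was lower than clorgyline by limma for 9 of 9 probes, against 0.169% of all probes called lower, with log2 differences of -3.86 (GAGE4) to -2.00 (GAGE2A) and an adjusted p of 7.53e-05 to 0.00391. The combination was lower than clorgyline for 9 of 9 probes as well, against 0.142% of all probes, with differences of -3.82 to -1.92 and an adjusted p of 7.82e-05 to 0.00427. Combination and 5-Aza-CdR arrays differed by -0.10 to 0.08, with 0 of 9 probes called against 0.00423% of all probes called higher and 0.00212% called lower, and 0 at an unadjusted p under 0.05.

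The pattern in these arrays went against that of the arrays labelled T24 and HL60, and the array labels bear on it. By their values over all probes, the HCT116-labelled clorgyline arrays correlated with the T24-labelled 5-Aza-CdR and combination arrays at a median r of 0.988 each and with the T24-labelled controls at 0.982. The HCT116-labelled 5-Aza-CdR arrays correlated most with the T24-labelled clorgyline arrays (0.993), and the HCT116-labelled combination arrays with the T24-labelled clorgyline arrays and controls (both 0.990). Whether the treatment labels of these arrays are right was not tested. It was also not tested whether the treated arrays held a line other than that of the T24-labelled arrays. The first clorgyline array was higher than the second for 9 of 9 member probes, by 0.12 to 0.74.

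The genes that follow GAGE most closely over the 8 T24 arrays were looked up next, by Pearson r with the mean of the 9 probes among 126 probes whose condition means spanned at least 1 log2 unit. The closest were CTCFL (r = 0.992), CKM (0.987), LRCH4 (0.987), VIM (0.987), MSX1 (0.983), MAGEA8 (0.957), HCLS1 (0.936) and the imprinted RNA gene H19 (0.931). These are descriptions over 8 arrays of 4 conditions, so the correlations rest largely on 5-Aza-CdR and combination arrays being high. H19 differed from T24 controls by 4.22 after 5-Aza-CdR and by 3.06 after the combination. It was thus lower in the combination than after 5-Aza-CdR, unlike GAGE and the other genes listed. In the 8 HL60 arrays the r stayed at 0.996 for CTCFL, 0.991 for CKM, 0.986 for LRCH4 and 0.999 for H19. It was 0.25 for VIM, -0.65 for MSX1, -0.05 for MAGEA8 and -0.51 for HCLS1. In the 8 arrays labelled HCT116 the r was 0.997 to 0.999 for CTCFL, LRCH4 and H19 and 0.998 for CKM, and it was 0.655 for VIM, 0.706 for MSX1, 0.986 for MAGEA8 and 0.849 for HCLS1.

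CTCFL, the testis paralogue of the insulator factor CTCF, was also the one gene of 28 measured in the list of other germline genes that was called in T24. There 0.0635% of all probes were called higher after 5-Aza-CdR and 0.229% after the combination. Without the fold limit, 11 of the 28 were higher in the T24 combination at a limma adjusted p under 0.05. The share of all probes at that limit is not given here, so nothing is read from the 11. Its T24 differences were 1.02 (SE 0.07) after 5-Aza-CdR and 1.39 (SE 0.07) after the combination, given as a description because its likeness to GAGE on those arrays was what singled it out. In HL60 it was higher by 1.99 (SE 0.11, limma adjusted p = 2.82e-07) and 1.95 (SE 0.11, limma adjusted p = 3.23e-07), and in the HCT116-labelled arrays it was lower after 5-Aza-CdR than after clorgyline by 1.45 (difference -1.45, SE 0.06). In HL60, 5 of the 28 genes were called higher after either treatment with 5-Aza-CdR, beside 0.423% of all probes after 5-Aza-CdR and 0.741% after the combination, with DAZL, PIWIL2, HORMAD1 and MAEL beside CTCFL.

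Genes of other cancer testis families on the X chromosome were called in T24 mostly in the combination. Of 63 measured genes in such families, 1 was called higher in T24 after 5-Aza-CdR (CT45A3, 1.24) and 15 after the combination, beside 0.0635% and 0.229% of all probes. Counted by probe, these were 1 and 19 of 128. VCX3B, a testis gene of the VCX family, was higher by 0.20 (SE 0.05) after 5-Aza-CdR and 3.45 (SE 0.05) after the combination on its most changed probe. VCX3A was at 0.13 (SE 0.12) and 3.27 (SE 0.12) and VCX at 0.15 (SE 0.10) and 3.17 (SE 0.10), so the VCX probes were near their controls after 5-Aza-CdR alone. CT45A3 reached 3.03 (SE 0.03) in the combination. In HL60, where 8 of the 63 were called higher after 5-Aza-CdR and 8 after the combination, beside 0.423% and 0.741% of all probes, VCX was higher by 2.12 (SE 0.08) and 2.55 (SE 0.08). VCX copies also share sequence, and their probes may detect one another.

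The PAGE and XAGE genes, relatives of GAGE on the same chromosome, had 10 measured members. In T24, 0 were called after 5-Aza-CdR and 3 after the combination, PAGE2B at 2.12 (SE 0.09), PAGE5 at 1.84 (SE 0.07) and PAGE2 at 1.26 (SE 0.09), beside 0.0635% and 0.229% of all probes. In HL60, 2 of the 10 were called after 5-Aza-CdR, PAGE5 at 2.51 (SE 0.09) and PAGE2B at 1.05 (SE 0.11), and the same 2 after the combination, beside 0.423% and 0.741% of all probes. The median over the list's probes was 0.07 in the T24 combination and 0.10 in HL60 after 5-Aza-CdR, beside a median near 0 over all probes.

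The genes that flank the GAGE cluster did not pass the call. Of 16 neighbours by order in RefSeq, 9 had a probe (SYP, CACNA1F, CCDC22, FOXP3, PPP1R3F, PAGE1, PAGE4, USP27X and CLCN5), and 0 were called in either line after either treatment with 5-Aza-CdR. In these contrasts 0.0635% to 0.741% of all probes were called higher, so the 0 is not read as a result about the neighbours. PAGE1, the one nearest past the cluster among these and also a PAGE family gene, had differences of 0.27 and 0.88 in T24 and 0.67 and 0.97 in HL60 for 5-Aza-CdR and the combination, below the fold limit, with limma adjusted p of 0.0113, 1.23e-05, 0.000692 and 2.66e-05. The other 8 had differences of -0.17 to 0.19.

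**Figure D5:**
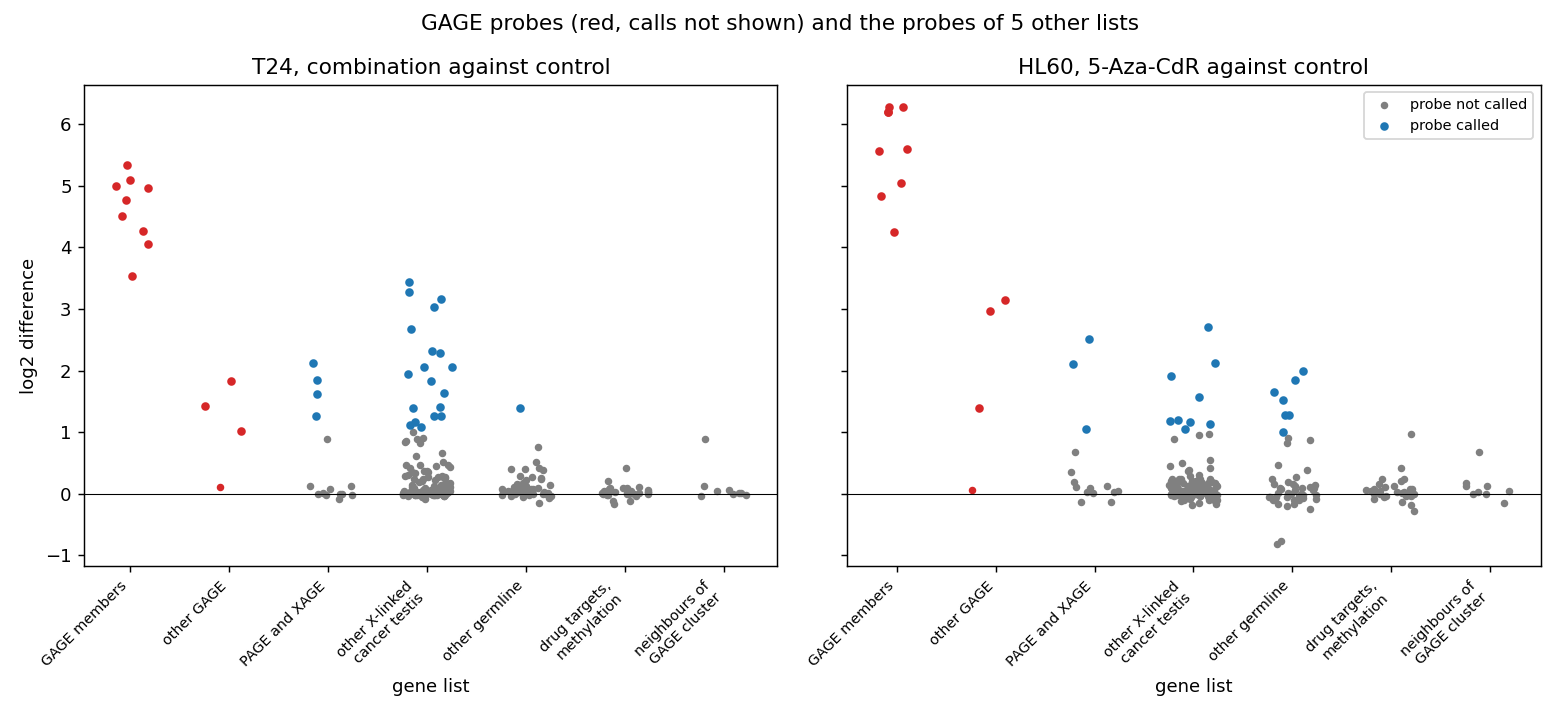
Log2 difference of each probe in 7 gene lists, for the T24 combination against control and for HL60 5-Aza-CdR against control, with 1 point per probe, GAGE probes in red without calls, and called probes of the other 5 lists in blue. GAGE members lie at 3.53 to 5.33 in T24 and 4.25 to 6.28 in HL60. The T24 comparison chose the members, so their place in it is a description only.

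The drug targets did not pass the call either. Of 17 measured genes in the list of targets and DNA methylation machinery, 0 were called in T24 or HL60 after 5-Aza-CdR or the combination. In these contrasts 0.0635% to 0.741% of all probes were called higher, so the 0 is not read as a result about these genes. Without the fold limit, at a limma adjusted p under 0.05, 1 was higher and 2 were lower in the HL60 combination. At that limit 1 was higher in HL60 after 5-Aza-CdR, and 0 passed in T24. The share of all probes at that limit is not given here, so nothing is read from these counts. DNMT1, the maintenance methyltransferase, differed by 0.07 (SE 0.13) after 5-Aza-CdR in T24 and -0.01 (SE 0.16) in HL60. KDM1A, which encodes LSD1, differed by -0.23 (SE 0.16) and -0.05 (SE 0.09), and MAOA by -0.22 (SE 0.14) and 0.07 (SE 0.08).

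A list of germ cell markers was read beside the GAGE probes. Of 7 measured markers, 0 were called in T24, beside 0.0635% of all probes called higher after 5-Aza-CdR and 0.229% after the combination. The mean level of the list lay between 8.06 and 8.07 in control arrays and between 8.11 and 8.11 in combination arrays. Without the fold limit, 2 of the 7 were higher in the T24 combination at a limma adjusted p under 0.05. DAZL went from 8.07 in controls to 8.34 there, and DDX4 from 8.07 to 8.19. The share of all probes at that adjusted limit is not given here, so nothing is read from the 2. In HL60, 1 of 7 was called after 5-Aza-CdR, beside 0.423% of all probes called higher. It was DAZL, an RNA-binding protein gene of germ cells, at 1.01 (SE 0.10), and the list mean went from 7.36 to 7.39 in controls to 7.51 to 7.53. The protamine genes PRM1 and PRM2 were at 7.38 and 7.33 in HL60 after 5-Aza-CdR, at or below the array median. Beside the GAGE rise in HL60, the mean level of 9 myeloid markers went from 10.34 to 10.38 in controls to 11.22 to 11.25 after 5-Aza-CdR. Of these 9, PRTN3, ELANE and LYZ were called, beside 0.423% of all probes called higher, and their part in the result was not tested.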

How the data were processed

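RNA was hybridised to 24 Illumina HumanHT-12 V4 arrays. The deposited values are log2 intensities, which the authors made with lumi (2.6.0 for T24 and HCT116, 2.8.0 for HL60, per the labels) by log2 transformation and Robust Spline Normalization within each line. A background correction is not given in the sources used here. Of 47231 probes, 30113 had 1 gene symbol, 8 had several and 17110 had none in the platform annotation, and 2 probes had a missing value in HL60. The values were used as deposited, with no further normalization.

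Limma 3.58.1 (R 4.3.3; lmFit, eBayes) was run separately for the 3 lines over all probes, with a mean per condition and 4 residual degrees of freedom. Only the test between lines used a joint fit over the arrays of all lines, with a mean per line and condition. The call was that of the study's methods, p under 0.01 before adjustment with a fold over 2, and Benjamini-Hochberg adjusted p-values were taken over all probes. A gene of a list counted as called where any of its probes passed, whereas the shares given beside such counts are per probe. The fits were tested on simulated data. The members and gene lists were chosen with earlier results of these data known. The text names every GAGE probe, up to 4 called genes of each other list with the largest T24 combination change, the drug targets DNMT1, KDM1A and MAOA, CTCFL, the measured neighbours of the cluster, and the 8 genes closest to GAGE over the T24 arrays. Markers and HL60 germline genes named beside them (EPCAM, KRT7, CDH2, CDX1, CDX2, CDH1, VIL1, KRT20, GPA33, UPK1B, UPK2, UPK3A, GATA3, MPO, DAZL, DDX4, PIWIL2, HORMAD1, MAEL, PRM1, PRM2, PRTN3, ELANE, LYZ) were picked after their values were seen. Alternatives covered the call rule, samples in the fit, normalization, eBayes settings, the replicate block, a filter on dim probes, the use of 1 probe per gene and the omission of single arrays. The number of arrays limits the precision. Promoter sequences are from RefSeq (GRCh38.p14), and no genome coordinate of a probe was used. Figures used matplotlib 3.10.9.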

Additional observations from a re-analysis of the deposited data

Results flagged for a closer look

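The treatment changes of GAGE differed between lines in the arrays as labelled. The test was limma on the arrays of all lines together. The T24 arrays, which had chosen the members, were therefore part of its error estimate. For 5-Aza-CdR against clorgyline, 9 of 9 member probes differed between HL60 and HCT116, where 1.08% of all probes did so. HL60 minus HCT116 was 6.17 to 10.23 on the log2 scale (limma adjusted p of 7.75e-17 to 4.22e-13). For the combination against clorgyline, 9 of 9 differed as well (6.35 to 10.30, adjusted p of 4.23e-17 to 3.40e-13), where 1.34% of all probes did. For both comparisons, 9 of 9 probes were higher in T24 and lower in HCT116. The T24 5-Aza-CdR and combination arrays had chosen the members, so nothing is read from that count. The difference between T24 and HCT116 was not tested. The doses differed between lines, and the markers of the HCT116-labelled arrays did not match between control and treated arrays.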

How the results depend on the processing

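The counts of called GAGE probes kept their value or fell from 9 to 8 with 1 probe per gene in every comparison under the alternatives run, with 1 exception: for HL60 combination against 5-Aza-CdR an adjusted p under 0.05 without a fold limit gave 1 probe in place of 0. The untested T24 mean for 5-Aza-CdR was 3.73, and moved to 4.52 with quantile normalization over all 24 arrays and to 3.65 with 1 probe per gene. The T24 mean for the combination was 4.61, and moved to 5.44 with that normalization and to 4.77 as a median over probes. Leaving out 1 array at a time gave T24 means of 3.67 to 3.80 for 5-Aza-CdR, 4.52 to 4.71 for the combination, 0.79 to 0.98 for combination against 5-Aza-CdR (0.88 with all arrays) and 0.81 to 0.99 for the excess over additivity (0.90 with all arrays). A lone array was assumed to vary like the other conditions. In all, 131 alternative values were within the limits of no change, 11 moved and 0 reversed, and 392 values for single probes kept their direction and call.

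The labels do not say whether the replicate numbers pair the arrays. Deviations of arrays with the same number correlated over all probes at -0.12 to 0.07 in T24, -0.07 to 0.18 in HL60 and -0.04 to 0.21 in HCT116. Many of these probes lie near background, so the low values cannot decide whether arrays were paired. With the replicate block, 9 probes were called in HL60 after 5-Aza-CdR and after the combination, 9 in HCT116 for 5-Aza-CdR and for the combination against clorgyline, and 0 in the other comparisons. With that block the T24 means were 3.73 and 4.61, 0.88 for combination against 5-Aza-CdR and 0.90 for the excess.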
